A study of Mus musculus with 16 samples.

Results

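The genes described here are Gzma, Gzmb, Ccl5, Ccl3, Ccl4, Cd7, Cd8a, Rgs1, Tyrobp and Srgn, 10 of the 24421 genes listed in the count matrices. They were chosen by measured values of these same cells, as cytotoxic, chemokine and leucocyte genes that lead the immune cells of the isolate, and because Ccl3 and Ccl4 had been seen to divide unequally between genotypes. Their levels, their shared cells and their division between genotypes are therefore given as a description, without a test. Single-cell RNA sequencing was performed on crypt-enriched small intestine of outbred mice at postnatal day 16, untreated, to compare the stem cell lineage of normal and precancerous epithelium. WT mice were wild-type. ROBO-Crainbow (ROBO) mice carried a transgene behind the CAG promoter at the ROSA locus, from which Villin-Cre recombination switches on RSPO3, PTPRK e1:RSPO3 e2–5 or PTPRK e1–7:RSPO3 e2–5 in the developing intestinal epithelium. Villin-Cre acts in epithelial cells, so the leucocytes described here are not the cells that the transgene targets. Each genotype has 8 labelled samples, but a cell's name gives only its genotype and a running number, so that each genotype stands as 1 pooled sample of an unstated number of mice. There were 1348 WT cells with 533 to 11908 unique molecular identifiers each (UMIs, 1 per captured transcript molecule; median 1492) and 1249 ROBO cells with 463 to 13756 (median 1610).

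Intraepithelial lymphocytes are T cells that lie between the epithelial cells of the gut, and many of them carry a CD8 coreceptor built from the Cd8a chain alone. Their killing function rests on granzymes, serine proteases stored in granules on the proteoglycan serglycin, the product of Srgn. CCL3, CCL4 and CCL5 are chemokines, small secreted proteins that attract leucocytes, and are released by T cells, natural killer cells and several kinds of myeloid cell, mast cells included. Of the other genes, Cd7 encodes a surface receptor of T and natural killer cells, Rgs1 a brake on chemokine receptor signalling, and Tyrobp the adaptor DAP12, through which receptors of natural killer and myeloid cells signal.

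In GENCODE M21 (GRCm38, the build named with the data), 4 of the 10 genes lie on chromosome 11. Ccl5 is at chr11:83525778-83530518 on the minus strand, Ccl3 at chr11:83647844-83649355 on the minus strand and Ccl4 at chr11:83662584-83664683 on the plus strand, with 13228 bases between Ccl3 and Ccl4, while Cd7 lies apart at chr11:121036747-121039418. Gzma is at chr13:113093825-113100981, Gzmb at chr14:56258838-56262260, Cd8a at chr6:71373427-71379173, Rgs1 at chr1:144242296-144249242, Tyrobp at chr7:30413760-30417585 and Srgn at chr10:62493833-62527451. Related neighbouring genes such as Ccl3 and Ccl4 could share reads, so their transcripts were compared at the length of the cDNA read, 75 bases. None of the 75-base stretches in the annotated transcripts of any of the 10 genes occurred in a transcript of another gene.

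RefSeq promoters (GRCm38.p6) were matched for 5 of the 10 genes, Gzma, Gzmb, Ccl3, Cd8a and Srgn, and those of the granzymes and of Ccl3 are printed because the granzymes and Ccl3 turned out to lie largely in different cells. Each line gives the 250 bases before the start, on the gene's own strand. Capitals mark TGTGGT, the core of the RUNX motif, and TGANTCA, the AP-1 motif, searched on both strands together with TATAAA.
Gzma, chr13:113100982-113101231, minus strand: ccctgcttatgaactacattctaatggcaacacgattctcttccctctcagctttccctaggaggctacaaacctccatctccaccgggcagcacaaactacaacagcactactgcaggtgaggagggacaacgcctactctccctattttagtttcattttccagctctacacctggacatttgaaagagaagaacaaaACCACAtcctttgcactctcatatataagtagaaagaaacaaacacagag
Gzmb, chr14:56262335-56262584, minus strand: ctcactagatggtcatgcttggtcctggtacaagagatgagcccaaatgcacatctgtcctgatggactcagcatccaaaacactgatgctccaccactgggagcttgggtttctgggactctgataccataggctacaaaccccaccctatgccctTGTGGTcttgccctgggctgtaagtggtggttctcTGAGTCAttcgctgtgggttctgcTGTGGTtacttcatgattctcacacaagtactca
Ccl3, chr11:83649379-83649628, minus strand: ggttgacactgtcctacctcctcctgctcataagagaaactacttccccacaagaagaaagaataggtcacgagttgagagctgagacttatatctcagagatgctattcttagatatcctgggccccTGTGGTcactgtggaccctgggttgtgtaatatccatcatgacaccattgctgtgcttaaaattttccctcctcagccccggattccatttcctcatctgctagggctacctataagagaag
Gzma held 1 TGTGGT match beginning 50 bases before the start, on the other strand, and Ccl3 held 1 at 122 bases. Gzmb held 2, at 93 and 34 bases, and 1 TGANTCA match at 58 bases. None of these 3 windows held TATAAA. Of 32851 promoter windows of the same length, 14% held TGTGGT, 6.75% TGANTCA and 12.4% TATAAA, so that each match describes these letters only.

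Clustering with the 10 genes left out of the variable genes gave 13 clusters, and 1 of them was immune-like, with 23 of 24 leucocyte markers raised. It held 47 cells, 27 WT cells (2.00% of WT cells, exact 95% interval 1.32 to 2.90%) and 20 ROBO cells (1.60%, 0.981 to 2.46%). The ROBO share minus the WT share was -0.402 percentage points (Newcombe interval -1.46 to 0.659), an interval that includes 0 and covers counting error only. Of the 52 cells with a UMI of at least 2 of the markers, 46 were in this cluster. The cluster was led by Gzma, Ccl5, Mcpt2, Mcpt1, Gzmb, Cd7, Rgs1, Ccl4, Tyrobp and Fcer1g, a list in which mast cell proteases stand beside lymphocyte genes. It held 4094 of the 4152 UMIs of the 10 genes (98.6%), or 450 per 10000 UMIs, against 0.0364 to 0.301 per 10000 in the other 12 clusters. All 10 genes were over 10-fold higher in the immune-like cells than in the others, as were 2.33% of the 10634 genes with at least 20 UMIs. The cluster was found from other leucocyte genes of the same cells, so this contrast is a description as well.

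Outside the immune-like cluster the genes were close to 0. Of 2550 cells, 45 held a UMI of any of the 10 genes, 58 UMIs in all. Gzma, with 13 UMIs in 11 of these cells, was the most widely spread, and no cell held more than 2. Ccl3 had 0 UMIs in the 2550 cells, Ccl4 and Tyrobp 1 each, and Srgn 8 in 5 cells, up to 4 in a cell of the cluster that also holds fibroblast genes such as Dcn and Col3a1. With cells thinned to 912 UMIs and shallower cells left out, 16 of 36 immune-like cells (44.4%, exact interval 27.9 to 61.9%) and 4 of 1912 others (0.209%, 0.0570 to 0.535%) held Gzma, compared with 36.2% and 0.431% unthinned, with unthinned median depths of 1749 and 1545.5 UMIs. For Ccl3 the thinned counts were 6 of 36 and 0 of 1912, the latter allowing a share of up to 0.157%. The share in the other clusters, whose cells are largely epithelial and should lack these genes, serves as the background level.

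**Figure D1:**
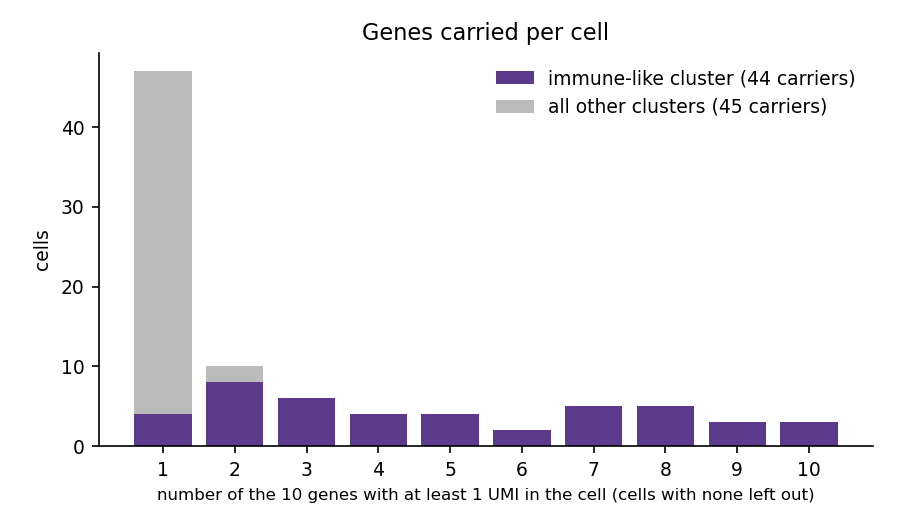
Number of cells (vertical axis) by how many of the 10 genes had at least 1 UMI in the cell (horizontal axis), immune-like cells in violet and all other cells in grey, with cells that carried none left out. The 43 grey cells with 1 gene and the 2 with 2 genes were the only carriers outside the immune-like cluster, and every cell with 3 or more genes was immune-like.

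The genes shared cells. Of 2597 cells, 2508 carried none of the 10 genes, 47 carried 1 and 10 carried 2, while 32 carried at least 3, 19 of them WT and 13 ROBO, and all 32 were immune-like. At the upper end, 18 cells carried 6 or more of the genes and 3 carried all 10, of which 2 were WT and 1 ROBO. In the other direction, 3 immune-like cells, all WT, carried none. The UMIs were also concentrated within carriers: a cell with a Gzma UMI held 61.4 on average, one with Ccl5 26.5, and even Srgn averaged 3.6. All 10 genes averaged at least 3 UMIs per carrying cell, as did 2.14% of the genes with at least 20 UMIs, whose median was 1.18.

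Gzma split the immune-like cells sharply. A group of 16 cells, 8 WT and 8 ROBO, held 29 to 291 Gzma UMIs each, and no other cell of either genotype held more than 2, so that a threshold of 10 UMIs, set after the values were seen, separates them without a cell between. In the 8 WT cells Gzma lay at 50 at the lowest, 106 at the median and 268 at the highest, and in the 8 ROBO cells at 29, 59.5 and 291. The ranges overlapped almost throughout. In the cell with the most, Gzma alone was 11.7% of all UMIs, and the 10 genes together made up 3.72 to 15.9% of the UMIs of these 16 cells, with a median of 10%. Gzma-rich cells were 0.593% of WT cells (exact interval 0.257 to 1.17%) and 0.641% of ROBO cells (0.277 to 1.26%), a difference of 0.0470 percentage points (-0.607 to 0.731).

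All 16 Gzma-rich cells also carried Gzmb, Ccl5, Cd7 and Rgs1, 15 carried Tyrobp, 14 Srgn and 13 Cd8a. Gzmb, the other granzyme, ranged from 10 to 99 UMIs over the WT cells (median 36) and from 4 to 36 over the ROBO cells (median 17). Ccl5 ranged from 16 to 113 in WT (median 60) and from 9 to 57 in ROBO (median 28.5). For both genes the ROBO range reached lower, and the ranges of the genotypes overlapped. Cd7 ranged from 8 to 23 in WT and from 1 to 14 in ROBO, and Rgs1 from 3 to 21 and from 5 to 25. Of all UMIs of Gzma, the Gzma-rich cells held 1704 of 1719, and of Gzmb 456 of 465. Over the 47 immune-like cells, Pearson's r of log levels was 0.99 between Gzma and Gzmb and 0.96 between Gzma and Ccl5, but -0.05 between Gzma and Ccl3 and -0.05 between Gzma and Ccl4. These are correlations over cells of shared libraries and unequal depth. The immune-like cells outside the Gzma-rich group had only 2 Gzma, 1 Gzmb and 4 Ccl5 UMIs. The high r values therefore follow largely from the split between the 16 cells and the rest. Whether levels follow each other within the 16 cells was not tested.

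Against the other 31 immune-like cells, 6 of the 10 genes were at least 4-fold higher in the Gzma-rich cells, Gzma, Gzmb, Ccl5, Cd7, Cd8a and Rgs1, as were 2.36% of the 763 genes with at least 20 UMIs in the cluster. Gzma defined the group, so its own difference was fixed by that choice, and the other 5 were chosen among these cells too, so nothing is read from the count. Cd8a stood at 95 UMIs in the Gzma-rich against 23 in the other immune-like cells, 6.77-fold higher per 10000 UMIs (log2 ratio 2.76, conditional exact interval 2.09 to 3.48), and Cd7 at 169 against 67, 4.13-fold higher (2.05, 1.63 to 2.48). Tyrobp, with 81 against 98 UMIs (0.44, -0.0048 to 0.88), and Srgn, with 49 against 87 (-0.12, -0.65 to 0.41), had intervals that include 0. Ccl3 and Ccl4 ran the other way, with 19 against 102 UMIs (-1.71, -2.50 to -1.0) and 28 against 178 (-1.96, -2.59 to -1.38). No member was 4-fold lower by sum, against 5.64% of the 763 genes.

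**Figure D2:**
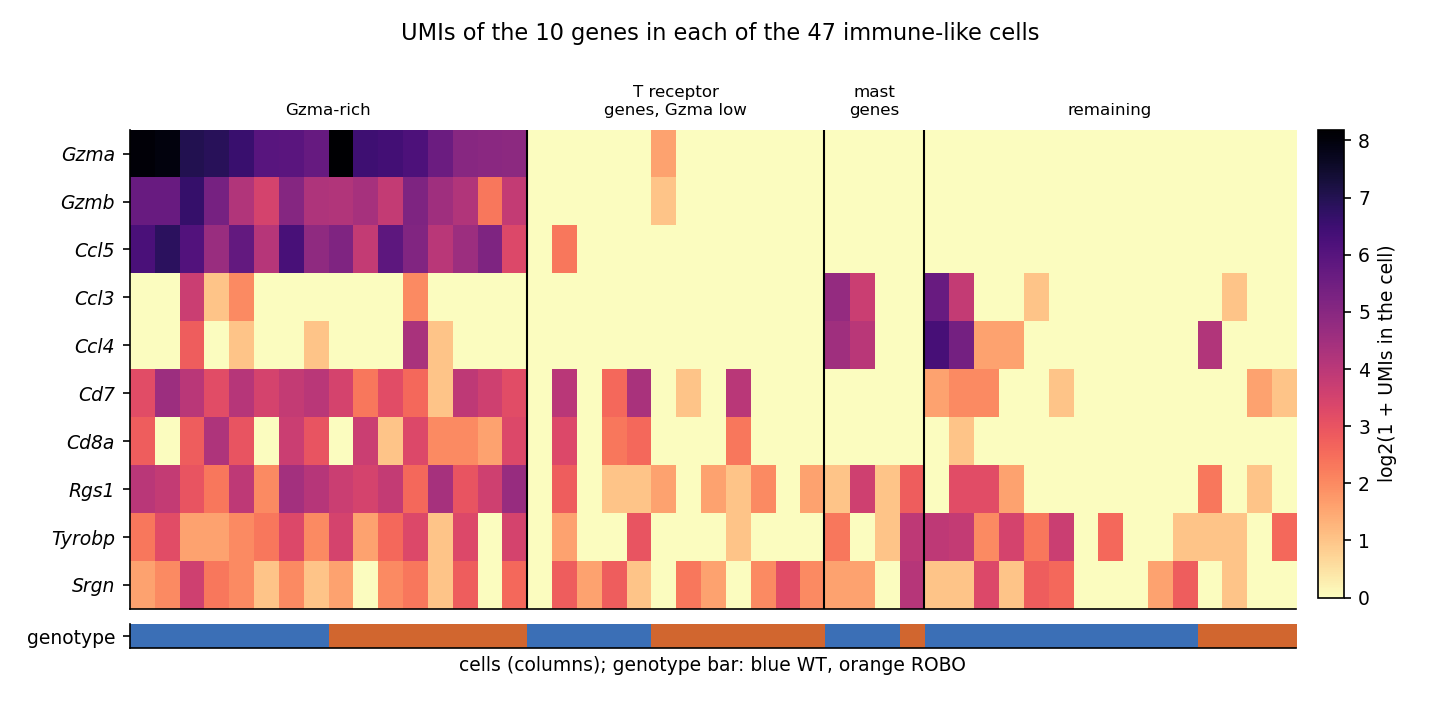
Heat map of the 10 genes (rows) in the 47 immune-like cells (columns), shaded by log2(1 + UMIs), with cells ordered by group and the bar marking genotype (blue WT, orange ROBO). The 16 Gzma-rich cells form a block in Gzma, Gzmb, Ccl5, Cd7 and Rgs1, while most Ccl3 and Ccl4 UMIs lie in columns with no Gzma.

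Genes of intraepithelial T cells were detected in the Gzma-rich cells. A Cd3 chain, part of the T cell receptor complex, was detected in 15 of the 16, with Cd3g at 53 UMIs in 14 cells. The receptor list as a whole stood at 47.5 UMIs per 10000 against 26.7 in the other immune-like cells. Those other cells mix cells grouped by this same list, described below, with cells of mast cell or macrophage genes. The receptor list was also mixed gene by gene. Thy1, Cd2, Cd5 and Cd28 had 0 UMIs in the Gzma-rich cells, and Cd247 and Lat were each lower there, at 0.870 against 1.77 per 10000. Itgae, the integrin chain that binds E-cadherin on epithelial cells, was found in 12 of the 16 Gzma-rich cells and Il2rb, a receptor chain for interleukin 15, in 13. The list of 14 intraepithelial residence genes that holds both stood at 35.7 per 10000, against 15.6 in the other immune-like cells. Its genes were mixed, since Itgb7, Cd69, Il7r, Ahr and Rora were lower per 10000 in the Gzma-rich cells and Eomes had 0 UMIs. Cd8b1, the CD8 beta chain, had 0 UMIs in all cells, while Cd8a had 121 in 21 cells. In the Gzma-rich cells a count of 0 allows up to 0.870 UMIs per 10000. Cd4 had 5 UMIs in 2 cells, neither of them Gzma-rich. The 3 Gzma-rich cells without Cd8a had 254, 62 and 291 Gzma UMIs and 4, 5 and 2 UMIs of the receptor list, against 3 to 24 in the 13 with Cd8a. These 3 cells held 4, 8 and 5 UMIs of a list of natural killer receptors, whose median over all 16 was 2 (0 to 8). A cell with Cd8a held 6 of that list, and the 3 cells without Cd8a also held Cd3g, at 3, 2 and 1 UMIs.

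Among other genes of the killing machinery, 9 of the 16 listed were detected in the Gzma-rich cells, at 63.5 UMIs per 10000 against 16.4 in the other immune-like cells. Nkg7, a granule membrane protein, was in all 16 cells with 71 UMIs, and Ctsw, a lymphocyte protease, in 11 with 30. Gzmc, a further granzyme, had 58 UMIs in 3 Gzma-rich cells, 50 of them in a single WT cell. Fasl, the ligand of the death receptor Fas, had 11 UMIs in 6 cells. Prf1, the pore-forming protein perforin, and Gzmk had 0 UMIs in all immune-like cells. Ncr1, the receptor that defines natural killer cells, was also at 0, but the natural killer receptor list as a whole was the higher in the Gzma-rich cells, with 42 UMIs in 14 of them, 12.2 per 10000 against 5.48 in the other immune-like cells. Its UMIs there were mostly of Cd244 (16 in 8 cells), Klrd1 (10 in 4), Fcgr3 (7 in 5) and Cd160 (5 in 4). Of these, only Cd160 was lower in the Gzma-rich cells, at 1.45 against 3.01 per 10000. Klrd1 had 15 UMIs in WT cells and 0 in ROBO cells.

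Markers of mast cells, macrophages and B cells were rare in the Gzma-rich cells. The mast cell list had 0 UMIs there and 961 in the other 31 immune-like cells, the macrophage and dendritic list 2.90 against 26.4 per 10000 (in the Gzma-rich cells 5 UMIs of Itgax, 4 of Itgam and 1 of Cd14), and the B cell list 0.580 against 11.0. The epithelial list, with Epcam and keratins, stood at 14.5 per 10000 in the Gzma-rich cells, at 26.7 in the other immune-like cells and at 139.9 outside the cluster. Neutrophil genes had 0 UMIs in every cell. The constant regions of the T cell receptor (Trac, Trbc1, Trbc2, Trdc and Tcrg-C1) are not listed under these names in the count matrices. Alpha-beta and gamma-delta T cells could therefore not be told apart by them.

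The 15 genes whose levels over 2597 cells followed the mean of the 10 most closely, of 10624 compared, were Nkg7 (Pearson's r = 0.83), Cd3g (0.81), Fcer1g (0.80), Il2rb (0.76), Gimap4 (0.76), Cd200r2 (0.74), Rac2 (0.73), Ctsw (0.72), Itgae (0.69), Dock10 (0.69), Cd52 (0.69), Laptm5 (0.68), Ptprc (0.67), Arhgdib (0.66) and Prkch (0.66). The r is across cells, which share libraries and differ in depth. Cd200r2 was the most confined of them to the Gzma-rich group, with 19 of its 20 UMIs there in 11 cells. Fcer1g, an immunoreceptor signalling chain related in role to Tyrobp, was in all 16 Gzma-rich cells with 95 UMIs and in 11 other immune-like cells with 46. Among the 10 genes themselves, Cd7 followed the mean of the others most closely (r = 0.84) and Ccl3 (0.42) and Ccl4 (0.44) least, with Srgn at 0.67.

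A further 12 immune-like cells, 5 WT and 7 ROBO, held at least 3 UMIs of the T cell receptor list and no more than 2 of Gzma. At that threshold lay 2 cells, and the immune-like cells left below it had at most 1. None held Ccl3 or Ccl4. Cd7 and Cd8a occurred together in 4 of them. Their UMIs of Cd7 and Cd8a were 19 and 5, 15 and 9, and 5 and 4 in 3 WT cells, and 15 and 4 in a ROBO cell. So 5 of the 18 immune-like cells with Cd8a lay outside the Gzma-rich group, and 27 immune-like cells carried Cd7 against 17 with Gzma. Thy1, a T cell surface protein, had 0 UMIs in the Gzma-rich cells and 26 in 7 cells of this group. It is on the receptor list that set the group, so its presence there was partly fixed by the choice. The cell with 15 Cd7 and 9 Cd8a UMIs also held 4 of Ccl5 and 49 of the chemokine Xcl1. Some ROBO cells of the group had 0 UMIs of Cd3d, Cd3e and Cd3g, and 1 of these held 8 UMIs of a list of innate lymphoid cell genes. The group is therefore named for the receptor list and not for a cell type.

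Rgs1, Tyrobp and Srgn were carried more widely. Srgn was found in 35 of the 47 immune-like cells (74.5%), Rgs1 in 33 (70.2%) and Tyrobp in 32 (68.1%), against 17 (36.2%) for each of Gzma, Gzmb and Ccl5. Of the 40 cells with Srgn, 21 were immune-like but not Gzma-rich, and of the 33 with Tyrobp 17 were. The highest Tyrobp values, 14 UMIs in each of 2 cells, belonged to a ROBO cell with 835 UMIs of mast cell genes and to a WT cell with 8 UMIs of Siglech and 9 of Irf8, genes of plasmacytoid dendritic cells. Srgn was also highest in that ROBO cell, at 16 UMIs, where Mcpt1 and Mcpt2, proteases of mucosal mast cells, had 351 and 442. In Gzma-rich cells Tyrobp had a median of 3.5 UMIs in WT (2 to 9) and 7.00 in ROBO (0 to 10). These ranges overlapped.

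Ccl3 and Ccl4 were mostly in other cells. Only 7 cells held 10 or more UMIs of the pair, with 17 in the lowest of them and at most 4 in any other cell. These 7 cells held 95% of all Ccl3 UMIs and 96.1% of all Ccl4 UMIs. The threshold was set after the values were seen. Of the 7, 2 were Gzma-rich and 5 had no Gzma UMI, and the Gzma-rich cells together held 15.7% of the Ccl3 and 13.5% of the Ccl4 UMIs. The naming of this gene group after lymphocytes therefore holds for the granzymes, Ccl5, Cd7 and Cd8a in these cells, but not for most Ccl3 and Ccl4 transcripts.

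**Figure D3:**
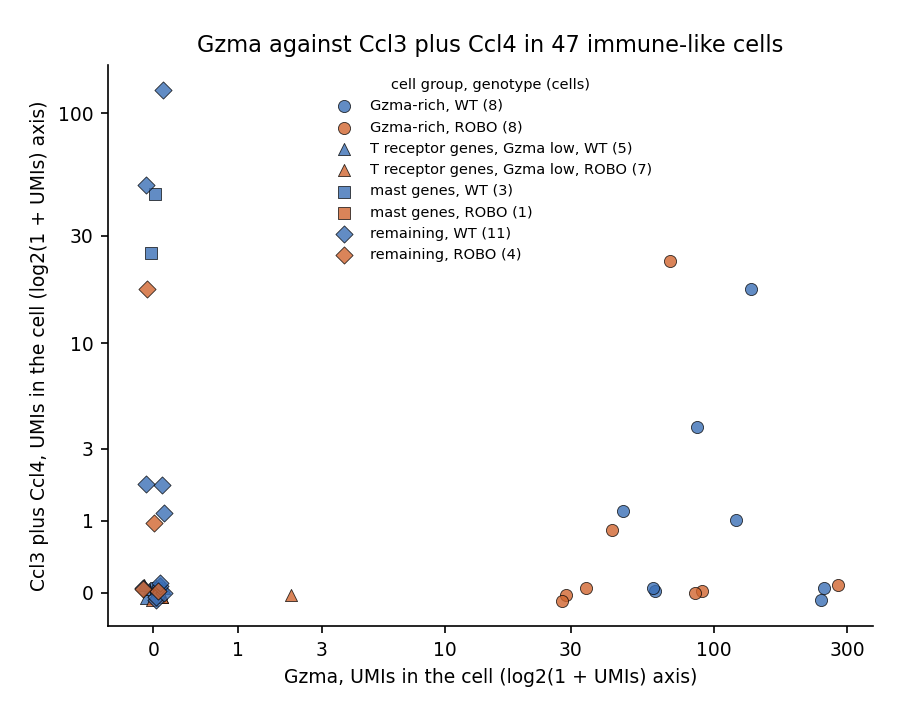
Gzma UMIs (horizontal axis) against Ccl3 plus Ccl4 UMIs (vertical axis) in each immune-like cell, coloured by genotype (blue WT, orange ROBO), with small jitter so that overlapping cells can be seen. Points lie along the axes, with 2 cells, 1 of each genotype, high in both.

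The 5 WT cells were of several kinds. The cell with the most had 49 Ccl3 and 79 Ccl4 UMIs, 6.03% of its 2124 UMIs, with Siglech and Irf8 as given above. A second held 13 and 41, with 13 of Tyrobp and 10 of Irf8. Mast cell genes marked the next 2, with 26 and 22 UMIs in a cell of 45 Mcpt1 UMIs and with 12 and 15 in a cell of 4 Mcpt1 and 11 Il4 UMIs. The fifth was Gzma-rich, with 12 of Ccl3, 6 of Ccl4 and 128 of Gzma. Both ROBO cells held more Ccl4 than Ccl3. A Gzma-rich ROBO cell had 3 and 19 beside 72 of Gzma, and a ROBO cell with no T cell receptor or mast cell gene had 0 and 17.

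The pair often shared a cell. Ccl3 was detected in 10 cells and Ccl4 in 13, and both in 7, which is 70.0% of the Ccl3 carriers and 53.8% of the Ccl4 carriers. All 10 Ccl3 carriers also held Srgn and 9 held Tyrobp, while 4 held Gzma. In the 7 cells with 10 or more UMIs of the pair, a list of 23 immediate-early and activation genes stood at 222 UMIs per 10000 (exact Poisson interval 195 to 250), against 115 (108 to 123) in the other 40 immune-like cells and 74.8 (65.9 to 84.5) in the Gzma-rich cells. Cells outside the cluster stood at 38.4. In single cells the list made up 0.639 to 7.93% of the UMIs of the 7 (median 2.17%). In the other 40 it made up 0 to 5.55% (median 1.01%), so the ranges overlapped. Of the 258 list UMIs in the 7 cells, 68 and 37 came from 2 WT cells with mast cell genes. The Poisson intervals treat UMIs as independent, which those of a single cell are not. The genes of the list did not move as 1, since of 21 detected 12 were higher and 9 lower in the 7 cells than in the other 40. Nr4a1, an immediate-early gene also found in 372 cells outside the cluster, was in 6 of the 7, at 36.9 per 10000 against 5.29. Fos stood at 1.72 against 13.1 and Tnfaip3 at 6.87 against 11.6. Without Irf8, a gene also used by dendritic cells, the list stood at 202 against 114.

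Of the 121 Ccl3 UMIs, 117 were in WT cells and 4 in ROBO cells, and of the 207 Ccl4 UMIs 170 were in WT and 37 in ROBO. Per 10000 UMIs of all cells, Ccl3 stood at 0.436 in WT (exact Poisson interval 0.361 to 0.523) and 0.0165 in ROBO (0.00449 to 0.0422), and Ccl4 at 0.634 (0.542 to 0.737) and 0.152 (0.107 to 0.210). On the log2 scale, ROBO over WT, this was -4.73 for Ccl3 (conditional exact interval -6.63 to -3.33) and -2.06 for Ccl4 (-2.61 to -1.54). These were the only 2 of the 10 genes that were at least 2-fold lower in ROBO, as were 1.42% of 10634 genes. None was 2-fold higher, against 1.35% of genes. Ccl3 and Ccl4 were chosen in part for this division, so nothing is read from the count. The intervals cover the counting of UMIs and not the choice of cells, and the UMIs of a cell are not independent.

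Counted in cells by the sum of Ccl3 and Ccl4 UMIs, the genotypes were closer. Cells with 10 or more UMIs of the pair were 5 of 1348 in WT (0.371%, 0.121 to 0.863%) and 2 of 1249 in ROBO (0.16%, 0.0194 to 0.577%), a difference of -0.211 percentage points with an interval of -0.719 to 0.261 that includes 0. In the 2 ROBO cells Ccl3 was at 3 and 0 UMIs, so Ccl4 carried them past 10. By gene, Ccl3 was at 10 or more UMIs in 5 WT and 0 ROBO cells, and Ccl4 in 4 and 2. Cells with at least 1 UMI were 8 WT and 2 ROBO for Ccl3, and 10 and 3 for Ccl4. A single WT cell held 41.9% of the WT Ccl3 and 46.5% of the WT Ccl4 UMIs, and a single ROBO cell 51.4% of the ROBO Ccl4. Leaving out each of the 7 cells in turn moved the log2 ratio of Ccl3 over -6.73 to -3.95 and that of Ccl4 over -3.10 to -1.16. The WT cells also contributed most of the kinds of cell that carried the pair without Gzma. There were 3 WT cells and 1 ROBO cell with at least 5 UMIs of the mast cell list (7 in the lowest of them, at most 1 in any other immune-like cell), and 11 WT and 4 ROBO immune-like cells below that limit and with at most 1 UMI of the T cell receptor list. Both groups had share differences whose intervals include 0. Without the mast cell gene group, 3 WT cells and 2 ROBO cells had 10 or more UMIs of the pair.

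**Figure D4:**
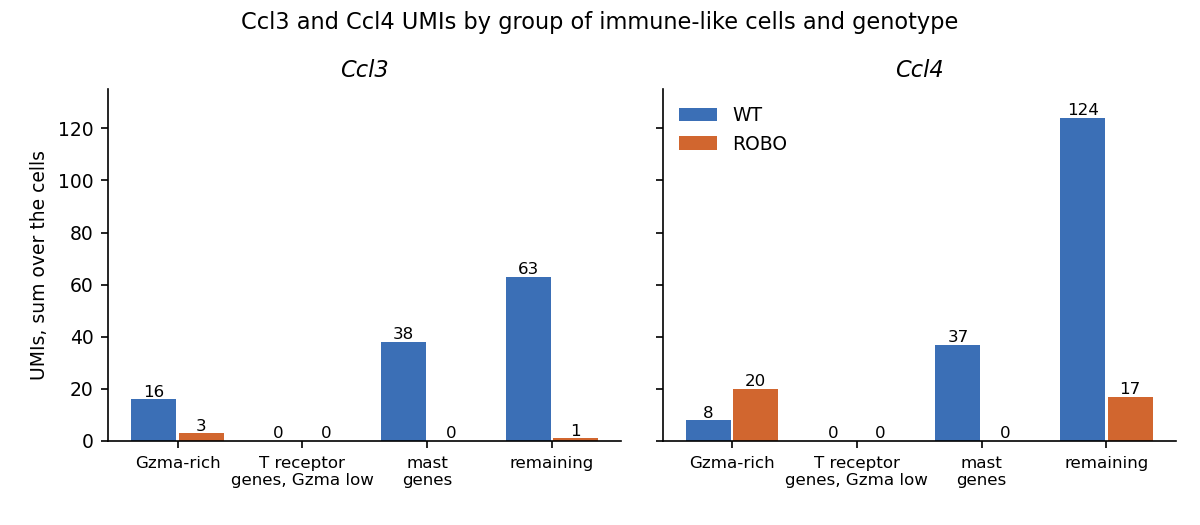
Ccl3 (left) and Ccl4 (right) UMIs summed over cells of each immune-like group, WT in blue and ROBO in orange. Most WT UMIs came from the remaining cells and from cells with mast cell genes, and the cells with T cell receptor genes but low Gzma had none.

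Within the Gzma-rich cells the division was different for the 2 genes. WT had 16 Ccl3 UMIs in 3 cells and ROBO 3 in 1 (log2 ratio -2.00, -4.42 to -0.20), whereas Ccl4 had 8 in 3 WT cells and 20 in 2 ROBO cells (1.74, 0.49 to 3.13), the reverse of its ratio over all cells. Without the top Gzma-rich cell of each genotype, Ccl4 had 2 and 1 UMIs (-0.76, -6.64 to 3.5). Cells are listed in the matrices in 5 WT and 8 ROBO runs of falling totals, and whether a run is a library is not stated. The WT cells rich in the pair lay in 3 of the 5 runs and the ROBO cells in 2 of the 8.

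The 8 other genes differed less between genotypes. As log2 ratios over all cells, ROBO stood against WT at -0.48 for Gzma (-0.62 to -0.34), -0.96 for Gzmb (-1.25 to -0.67) and -0.87 for Ccl5 (-1.10 to -0.63). Cd7 stood at -0.79 (-1.20 to -0.40), Cd8a at -0.66 (-1.23 to -0.11) and Tyrobp at -0.54 (-1.0 to -0.096). Rgs1 (0.03, -0.32 to 0.39) and Srgn (-0.34, -0.84 to 0.15) had intervals that include 0. A sum over all cells mixes the number of carriers with the UMIs in each. Over the immune-like cells alone, where ROBO has fewer cells, Gzma was at 0.058 (-0.084 to 0.20), Gzmb at -0.45 (-0.75 to -0.17), Ccl5 at -0.36 (-0.60 to -0.13) and Rgs1 at 0.59 (0.22 to 0.95). With every cell weighted alike, Gzmb stood at -0.32 and Ccl5 at -0.54, against -0.13 for Gzma, -0.19 for Cd7 and -0.099 for Cd8a. Both ways of summing gave smaller differences between genotypes for these 5 genes than the sum over all cells.

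In Gzma-rich cells, of equal number in both genotypes, Gzmb stood at -0.73 (-1.03 to -0.44), Ccl5 at -0.61 (-0.85 to -0.38) and Tyrobp at 0.81 (0.14 to 1.49). The direction for Tyrobp was the opposite of that over all cells. The 8 WT cells had 19708 UMIs in all and the 8 ROBO cells 14786, and these ratios are per 10000 UMIs. The 5 highest cells held 84.9% of the WT and 75.7% of the ROBO Gzmb UMIs. For Gzmb and Ccl5 the ranges over cells overlapped between genotypes as given above. Without the top Gzma-rich cell of each genotype for the gene, Gzmb was at -0.78 (-1.13 to -0.44) and Ccl5 at -0.69 (-0.97 to -0.42). With each genotype 1 pooled sample, none of these differences has a replicate check.

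**Figure D5:**
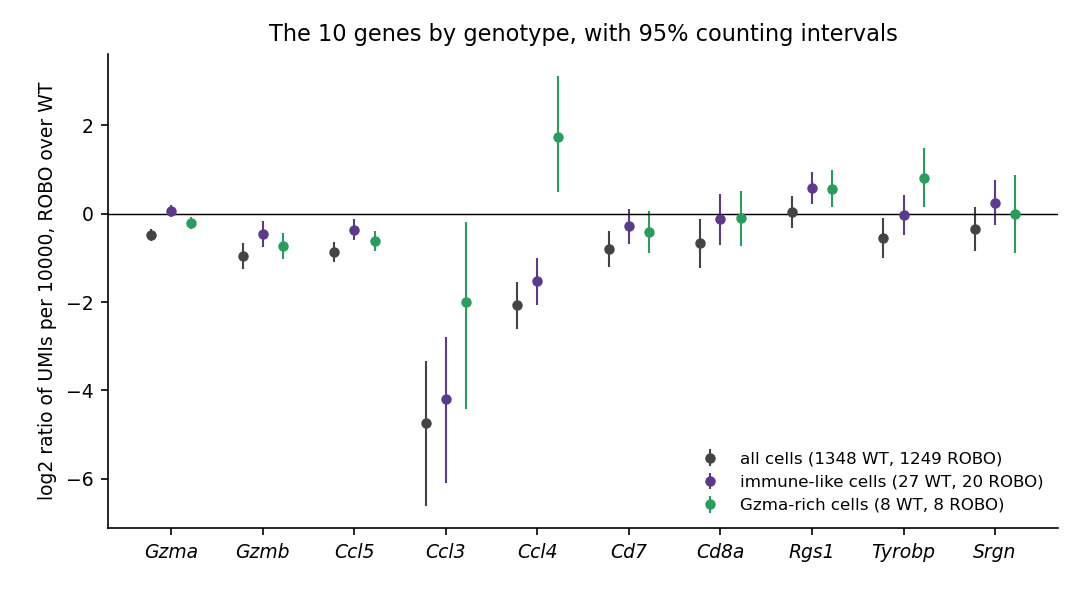
Log2 ratio of ROBO over WT for each of the 10 genes (UMIs per 10000 UMIs), over all cells, immune-like cells and Gzma-rich cells, with points for the ratio and bars for the exact 95% interval of counting error. Ccl3 lies below 0 in each, while Ccl4 lies below 0 over all cells and above 0 in the Gzma-rich cells.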

How the data were processed

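Deposited data were 2 count tables, 1 per genotype, made by the authors from 3' SureCell libraries (Bio-Rad ddSEQ, a droplet method) in BaseSpace Sequence Hub with genome mm10 (GRCm38). The aligner is not given in the sources used here. Values are UMI counts per gene and cell, not normalised. Per the labels up to 2400 cells were isolated per genotype, and 1348 and 1249 are listed. Cell names hold no barcode, so barcodes shared between libraries could not be counted and cells could not be tied to the labelled samples. Each genotype was 1 sample and no test was run. Cells were used as deposited. Scrublet in scanpy 1.11.5 called 6 doublets, none immune-like, and none was removed. Seurat 5.3.0 (R 4.3.3) clustered log-normalised counts with 2000 variable genes, without the 10 genes, 20 components and resolution 0.8. Cell cycle scores (S and G2M) were regressed out before the components were computed. Sums were divided by all UMIs of the same cells, per 10000. Intervals (scipy 1.17.1) were exact Poisson, conditional exact, Clopper-Pearson and Newcombe, all 95%, and cover counting error only. Shares of cells were also computed after thinning to 912 UMIs. Fold counts used genes with at least 20 UMIs. Genes outside the 10 were named from marker lists or as the 15 with the highest Pearson correlation to the mean of the 10. The 10 genes and the lists were chosen with earlier results of these data known, and cell groups within the cluster were set after the values were seen. Scripts were tested on simulated data. A coding sequence is not reported here.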

Additional observations from a re-analysis of the deposited data

How the results depend on the processing

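No paired analysis was possible because the cells carry no replicate number. Depth limits the rare carriers: a count of 0 in the Gzma-rich cells allows 0.870 UMIs per 10000, and 1 cell can hold much of a gene's total. Of 123 alternative values for 29 results, 91 stayed within their counting error or, for counts, within 1.5 times. Most others are log2 ratios, ROBO to WT, and the cause of each shift was not tested. Gzma, at -0.48, was -0.87 without the top cell of each genotype, -0.16 with cells thinned, 0.058 in immune-like cells (reversed) and -0.21 in Gzma-rich cells. With each cell given the same weight, Gzma was -0.13, Gzmb -0.32, Ccl5 -0.54, Cd7 -0.19 and Cd8a -0.099. With cells thinned, Gzmb was -0.47 and Ccl5 -0.58. Over immune-like cells, whose own UMIs are then the denominator, Gzmb was -0.45, Ccl5 -0.36, Ccl4 -1.51, Cd7 -0.28, Rgs1 0.59, Tyrobp -0.027 and Srgn 0.25. In Gzma-rich cells, an alternative chosen after seeing the data, Ccl5 was -0.61, Ccl3 -2.00, Cd8a -0.11 and Rgs1 0.56, and Ccl4 at 1.74 and Tyrobp at 0.81 turned direction. Genes 2-fold higher in ROBO numbered 144 with at least 20 UMIs, 285 with at least 10 and 38 with at least 50, and those 2-fold lower 151, 363 and 42. Of the 15 most alike genes, 8 were shared with Spearman's rho and 9 with at least 50 UMIs. WT cells with 10 or more Ccl3 and Ccl4 UMIs fell from 5 to 3 without cells with mast cell genes, and ROBO cells from 2 to 1 at 20 or more, both also chosen after seeing the data.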
